A study of Homo sapiens with 12 samples.

Results

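The 7 genes INPP5D, AKAP9, CYFIP2, THBD, CAVIN2, GALNT5 and TLR4 were chosen by their measured interaction, from a table of 58735 annotated genes: bleomycin raised their transcripts by a smaller factor in ANT1 knockout cells than in wild type cells. Each gene name matched 1 row of the count table, and all 7 were among the 16702 genes with enough counts to be tested. All samples came from Beas-2b, an established cell line from human bronchial epithelium. Wild type cells and CRISPR knockout clones of SLC25A4, the gene of the mitochondrial ADP/ATP translocase ANT1, were each kept in medium or given bleomycin, a drug that breaks DNA. Bleomycin was used at 10 mg/ml for 2 days to make the cells senescent, per the labels. Each of the 4 groups (wild type control, wild type bleomycin, knockout control, knockout bleomycin) had 3 libraries of poly(A) RNA, called biological replicates in the design text. No source used here gives the number of knockout clones, and an effect of the genotype cannot be told apart from one of a clone.

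The values that chose the genes were those of the genotype by bleomycin interaction, the log2 response to bleomycin in knockout cells minus that in wild type cells, fitted without replicate 2 of the knockout control group. In that fit 9 of 17204 genes (0.0523%) passed the threshold, all with a smaller response in knockout cells: the 7 genes, CDKN1A and RRM2B. At the threshold of 0.05, TLR4 and RRM2B lay just inside with an adjusted value of 0.0497, and MDM2 and PTPN22 lay just outside with 0.0502. In the fit of all 12 libraries, edgeR called 0 of 16702 genes for the interaction, and 770 of the 16702 had an unadjusted p under 0.05. DESeq2 called 4 (0.0239%), none of them among the 7. The interaction, the bleomycin responses and the genotype differences within each treatment all went into the choice. Below they are descriptions without a test.

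The 7 genes belong to unrelated machineries. INPP5D encodes SHIP1, a phosphatase that removes the 5-phosphate of PIP3 and so limits PI3-kinase signalling, and is best known from blood cells. TLR4 is the receptor for bacterial lipopolysaccharide, and THBD encodes thrombomodulin, the surface protein that turns thrombin from a clotting enzyme into an activator of protein C. CYFIP2 is a subunit of the WAVE complex, which drives branching of actin filaments under the control of Rac, and is known as a p53-inducible gene (PIR121). AKAP9 is a large scaffold that anchors protein kinase A at the Golgi and the centrosome, and CAVIN2 is a coat protein of caveolae, small pits of the plasma membrane. GALNT5 is an N-acetylgalactosaminyltransferase that starts O-linked glycans of the mucin type.

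The genes lie on 5 chromosomes (GENCODE release 29, GRCh38). INPP5D spans chr2:233059967-233207903 on the plus strand, CAVIN2 chr2:191834302-191847255 on the minus strand and GALNT5 chr2:157257598-157314211 on the plus strand. AKAP9 spans chr7:91940867-92110673 on the plus strand, CYFIP2 chr5:157266079-157395595 on the plus strand, THBD chr20:23045633-23049741 on the minus strand and TLR4 chr9:117704175-117724730 on the plus strand. CYFIP2 overlaps 6 other annotated genes, among them ADAM19, which had 594 to 958 counts per library. Whether strand was used in counting is not given, so reads of the overlap cannot be told apart. CYFIP2 also has a close paralog, CYFIP1, with which reads may be shared. Genes overlapping INPP5D, CAVIN2, GALNT5 or TLR4 had at most 2 counts in a library, and none overlaps AKAP9 or THBD.

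Sequence upstream of the starts was compared because the genes moved together. RefSeq (GRCh38.p14) gave 7 starts for 5 of the genes, with a pair each for CYFIP2 and AKAP9. The table used here held no entry for THBD or GALNT5. The 250 bases before each start were searched on both strands for the ETS core GGAAGT, for the AP-1 site TGANTCA, for the TATA box (letters TATAAA), for the CAAT box (letters CCAAT), for the GC box (letters GGGCGG) and for the consensus half-site of p53. None of these is contained in another. Windows of CAVIN2, INPP5D, CYFIP2 and TLR4 held GGAAGT, that is 4 of 7 windows beside 19.5% of all 35116 such windows. The 30-base stretches around each match follow on the gene's strand, with the match in capitals (on the opposite strand in TLR4, where it reads ACTTCC).
INPP5D, chr2:233060269-233060298, plus strand: tttctgtaatgaGGAAGTtctccgcagctc
INPP5D, chr2:233060312-233060341, plus strand: tcactgagcgcctgaaacaGGAAGTcagtc
CAVIN2, chr2:191847178-191847207, minus strand: agaacgcggttaGGAAGTgtgtgcatacgt
CYFIP2 second start, chr5:157269120-157269149, plus strand: tgcttttttgagGGAAGTtggtctctgtga
CYFIP2 second start, chr5:157269220-157269249, plus strand: aggcttcaggtgGGAAGTgctcttaagtag
TLR4, chr9:117704218-117704247, plus strand: tttcttcttctaACTTCCtctcctgtgaca
TLR4, chr9:117704290-117704319, plus strand: gttgccgctttcACTTCCtctcacccttta

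The matches began 61 and 11 bases before the RefSeq start in INPP5D, 107 in CAVIN2, 192 and 92 in CYFIP2, and 173 and 101 in TLR4. All of these matches lie inside the gene spans given above, which begin before these RefSeq starts. A half-site of p53, a factor that bleomycin activates in many cells, was found in 1 of the 7 windows, beside 5.57% of all windows. It lies 175 bases before the second start of AKAP9, inside the gene.
AKAP9 second start, chr7:92057393-92057422, plus strand: caaacattatAAACTTGTCTaaatgccctt

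The GC box was in 3 of the 7 windows (42.6% of all), the TATA box in 1 (AKAP9, 10.7% of all), the CAAT box in 1 (TLR4, 32.0% of all) and the AP-1 site in 0 (6.57% of all). The first starts of CYFIP2 and AKAP9 had CpG-rich windows with 30 and 21 CpG, where the median of all windows was 11, and the other 5 had 2 to 9. The windows ran from 37.6% to 76.4% GC around a median of 58% over all windows. The 7 windows, which cover 5 of the genes, thus share no single type. The sequence before the first start of CYFIP2 and of AKAP9 is shown as far as no annotated exon covers it, with GGGCGG or its complement in capitals.
CYFIP2 first start, chr5:157265873-157266078, plus strand: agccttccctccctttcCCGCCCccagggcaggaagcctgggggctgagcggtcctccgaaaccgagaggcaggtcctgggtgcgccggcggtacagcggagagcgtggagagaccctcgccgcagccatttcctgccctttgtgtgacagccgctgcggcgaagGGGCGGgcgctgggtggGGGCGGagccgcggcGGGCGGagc
AKAP9 first start, chr7:91940612-91940861, plus strand: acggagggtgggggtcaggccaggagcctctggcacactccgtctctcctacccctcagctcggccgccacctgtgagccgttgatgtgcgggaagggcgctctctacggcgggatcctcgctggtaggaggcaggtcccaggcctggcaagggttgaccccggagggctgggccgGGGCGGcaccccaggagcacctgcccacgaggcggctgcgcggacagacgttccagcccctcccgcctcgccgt

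A match is a description of the letters and no evidence of binding.

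Libraries held 15.75 to 21.92 megacounts, so 3 counts, the most that a count of 0 allows, stand for 0.137 to 0.190 CPM (counts per megacount, scaled between libraries by TMM factors). The lowest count of any of the 7 genes in a library was 17, in INPP5D. SLC25A4 was at 16.1 to 27.5 CPM in wild type and 4.09 to 6.97 CPM in knockout libraries. One library, knockout control replicate 2, was unlike the rest: mitochondrial transcripts were 0.364% of its counts and 3.86% to 5.13% in the other 11 libraries. Its chi-square per gene against the other knockout controls was 114 and 105, while other pairs of replicates gave 2.79 to 16.8. It also held 3474 CPM of the collagen gene COL1A1, where the lowest and highest of the other libraries had 463 and 1200. The interactions, range of control differences, gains and FPKM order of the 7 genes are therefore given with and without it, as are the counts over all pathway genes. Correlations over libraries include it, and so do the estimates of single pathway genes unless stated.

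Epithelial markers summed to 1653 to 1968 CPM over the 12 libraries, with KRT8 at 415 to 762 CPM. EPCAM (0.745 to 2.49 CPM) and CDH1 (0.489 to 2.96 CPM) were low, and KRT5 was at 0 counts in all knockout controls. Several of the 7 genes are typical of leukocytes or endothelium, so those markers were checked. The 13 leukocyte markers summed to 6.50 to 11.4 CPM in control libraries and 26.7 to 32.5 CPM after bleomycin. LAPTM5 (up to 18.2 CPM), CORO1A (up to 9.92 CPM) and ITGAM (up to 6.08 CPM) carried most of this sum. PTPRC, which encodes the pan-leukocyte antigen CD45, was at 0.427 CPM at most, and TYROBP was at 0 counts in every group but wild type bleomycin. The 10 endothelial markers summed to 17.5 to 19.8 CPM in wild type control and 15.1 to 18.4 CPM in wild type bleomycin, most of it EGFL7. In knockout cells they summed to 19.2 to 31.3 CPM in control and 20.4 to 22.1 CPM in bleomycin. The 8 fibroblast markers summed to 925 to 1559 CPM in wild type controls, 770 to 802 CPM in wild type bleomycin and 693 to 917 CPM in knockout bleomycin. In knockout controls they ran from 942 to 3660 CPM, and DCN and LUM were at 0 counts in both control groups. The part of these marker genes in the results was not tested.

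After bleomycin, all 7 transcripts reached overlapping levels in the genotypes, as 81.4% of all genes did. In control cells the mean of the knockout was above that of the wild type in all 7, and every knockout library was above every wild type library in 5, while replicate 2 was not in AKAP9 and TLR4. The factor by which bleomycin raised them was therefore smaller in knockout cells, while the levels reached overlapped. The knockout response and the genotype difference in control use the same knockout control libraries, so they are a single set of values seen from opposite sides. In bulk RNA, more cells with a transcript and more transcript per cell cannot be told apart.

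**Figure D1:**
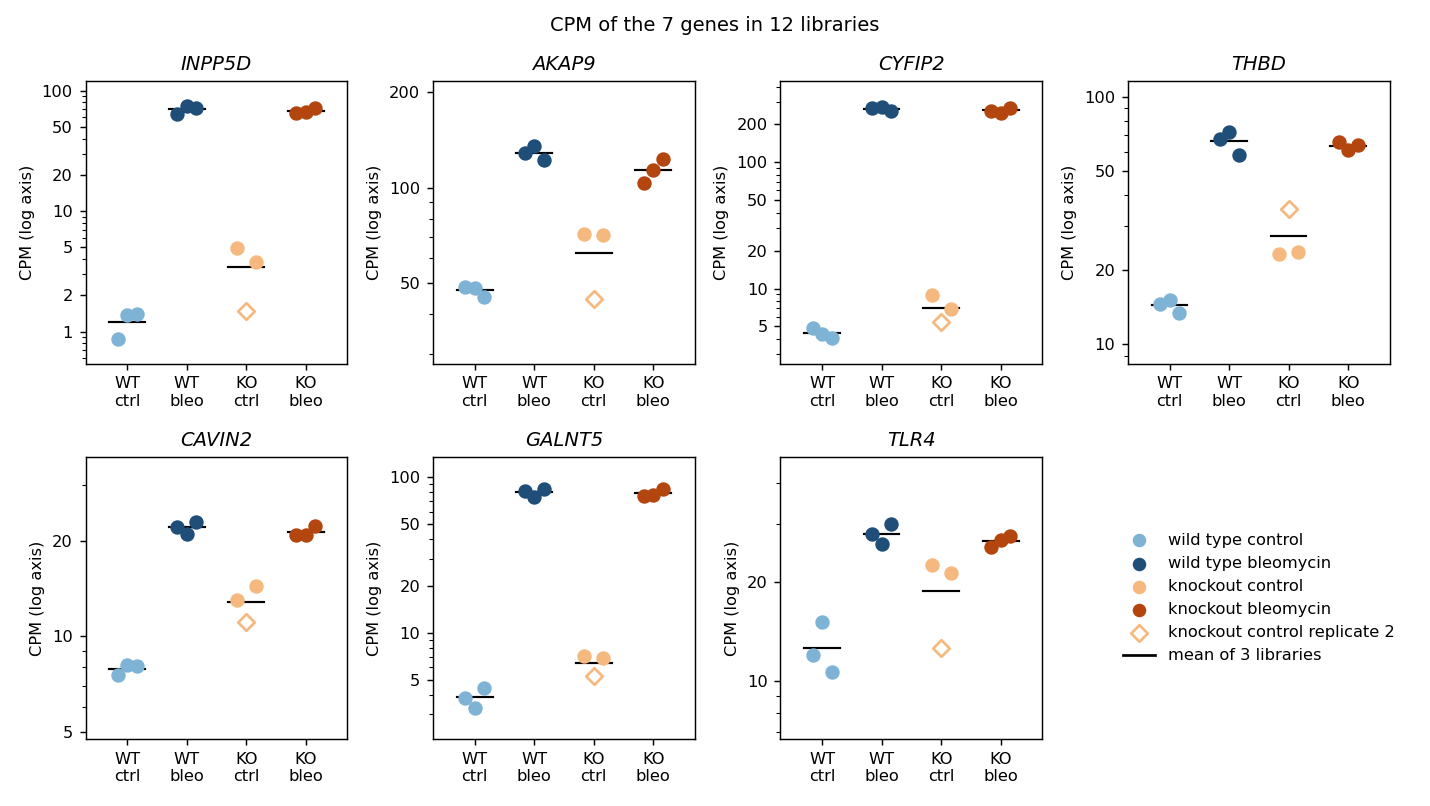
CPM (log axis) of each gene in the 12 libraries, with circles for single libraries, an open diamond for knockout control replicate 2 and a black line for the mean of 3 libraries. Blue stands for wild type and orange for knockout, with control lighter than bleomycin. The bleomycin groups overlap in all 7 genes, while the filled knockout control circles lie above every wild type control circle.

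INPP5D, the phosphatase gene, was close to silent in wild type control cells at 0.865, 1.36 and 1.41 CPM (17, 30 and 26 counts). The knockout controls had 4.95, 1.49 and 3.77 CPM (82, 24 and 69 counts), all above the wild type controls, with replicate 2 just above the highest. Bleomycin brought it to 63.7, 75.1 and 71.5 CPM in wild type cells and to 65.3, 66.5 and 71.7 CPM in knockout cells, and these ranges overlap. It was thus raised from a trace to a well-expressed transcript in either genotype. The log2 response was 5.85 (SE 0.31) in wild type and 4.31 (SE 0.27) in knockout cells, the widest gap of the 7 genes, with an interaction of -1.54 (SE 0.41). Without knockout control replicate 2 the interaction was -1.88 (SE 0.22). As fold changes of the fit, these responses were 57.5 in wild type and 19.8 in knockout cells, or 15.6 in knockout cells without that library. The gain was 68.9 CPM in wild type and 64.4 CPM in knockout cells, a ratio of 0.935.

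TLR4, the lipopolysaccharide receptor, had 12.01, 15.1 and 10.6 CPM in wild type control and 22.6, 12.6 and 21.3 CPM in knockout control. Replicate 2 of the knockout lay among the wild type controls, and the other knockout controls lay above them. After bleomycin it stood at 27.9, 26.1 and 30.1 CPM in wild type and 25.6, 26.9 and 27.7 CPM in knockout cells. The response was the smallest of the 7 in both genotypes, at a log2 difference of 1.15 (SE 0.19) in wild type and 0.50 (SE 0.19) in knockout cells. The interaction was -0.65 (SE 0.26), and -0.86 (SE 0.16) without knockout control replicate 2. Then the knockout response was 0.28 (SE 0.12), a 1.22-fold change in the fit. The added amount was then 4.79 CPM where wild type cells added 15.4 CPM.

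CYFIP2, the WAVE complex subunit, had 4.83, 4.36 and 4.05 CPM in wild type control and 8.82, 5.47 and 6.89 CPM in knockout control, with no overlap. Bleomycin took it to 270, 276 and 254 CPM in wild type and 256, 249 and 271 CPM in knockout cells. This was the highest fold change of the 7 genes in either genotype. In the fit it was 60.3 in wild type and 36.6 in knockout cells, or 32.9 without replicate 2. The log2 responses were 5.91 (SE 0.15) and 5.19 (SE 0.15), with an interaction of -0.72 (SE 0.19). Without knockout control replicate 2 it was -0.87 (SE 0.15). Bleomycin added 263 CPM in wild type and 252 CPM in knockout cells.

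AKAP9, the kinase and centrosome scaffold, was well expressed without bleomycin, at 48.7, 48.4 and 45.4 CPM in wild type control. The knockout controls had 71.7, 44.7 and 71.0 CPM, of which replicate 2 was below all wild type controls. After bleomycin the wild type had 128, 136 and 122 CPM and the knockout 104, 114 and 123 CPM, so that the ranges overlapped only at their edges. AKAP9 was the gene whose knockout bleomycin mean fell furthest short of wild type, with a log2 difference of -0.18 (SE 0.15). The responses were 1.44 (SE 0.15) and 0.86 (SE 0.15), and the interaction was -0.57 (SE 0.21), or -0.76 (SE 0.11) without replicate 2.

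THBD, the gene of thrombomodulin, had 14.6, 15.2 and 13.4 CPM in wild type control and 23.2, 35.3 and 23.6 CPM in knockout control. All knockout controls were above all wild type controls, and here replicate 2 was the highest rather than the lowest. After bleomycin the levels were 67.6, 72.5 and 58.4 CPM in wild type and 65.9, 60.8 and 63.9 CPM in knockout cells. The log2 response was 2.20 (SE 0.15) in wild type and 1.22 (SE 0.15) in knockout cells. Leaving out replicate 2 moved the interaction from -0.99 (SE 0.21) to -0.76 (SE 0.13), the opposite direction to the other 6 genes.

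CAVIN2, the caveolar coat gene, had 7.58, 8.13 and 8.05 CPM in wild type control and 13.1, 11.1 and 14.4 CPM in knockout control, with no overlap. It reached 22.2, 21.0 and 23.0 CPM in wild type and 20.9, 20.9 and 22.2 CPM in knockout cells after bleomycin. Its replicates were the closest of the 7 genes in wild type control (7.92 ± 0.297 CPM, SD, n = 3) relative to the difference from the knockout (12.9 ± 1.63 CPM, SD, n = 3). The log2 responses were 1.48 (SE 0.11) and 0.73 (SE 0.11), with an interaction of -0.75 (SE 0.16), or -0.84 (SE 0.14) without replicate 2.

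GALNT5, the glycosyltransferase gene, had 3.82, 3.31 and 4.43 CPM in wild type control and 7.07, 5.29 and 6.89 CPM in knockout control, again without overlap. Bleomycin raised it to 81.5, 74.3 and 83.4 CPM in wild type and to 76.0, 77.0 and 84.5 CPM in knockout cells. The bleomycin means were the closest of the 7 genes, with a genotype difference of -0.01 (SE 0.12) on the log2 scale. The responses were 4.37 (SE 0.14) and 3.62 (SE 0.13), and the interaction was -0.75 (SE 0.18), or -0.87 (SE 0.16) without replicate 2. The fold change of the fit was 20.7 in wild type and 12.3 in knockout cells, while the CPM added was 75.9 and 72.8.

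**Figure D2:**
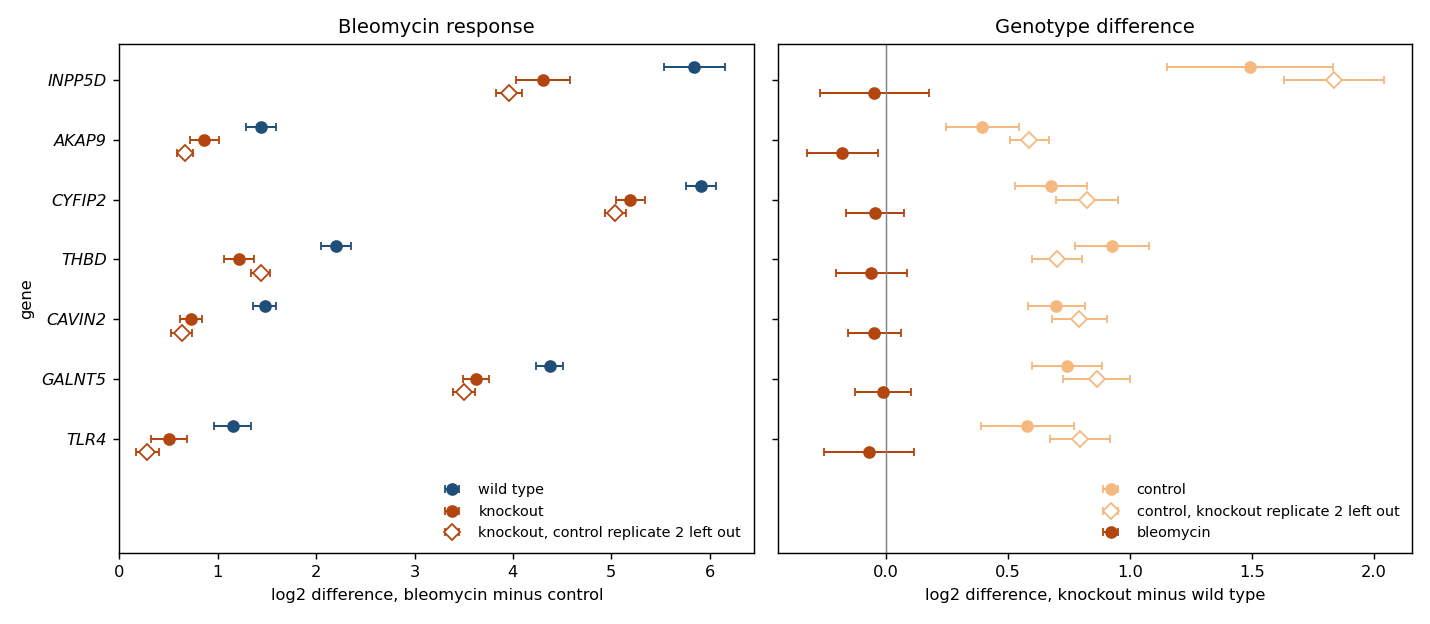
Left, log2 difference of bleomycin minus control for each gene in wild type (blue) and knockout (orange) cells; right, log2 difference of knockout minus wild type in control (light) and in bleomycin (dark). Bars are SE of the edgeR fit, and open diamonds leave out knockout control replicate 2. Genotype differences in bleomycin lie between -0.18 and -0.01, and those in control between 0.40 and 1.49.

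Over the 7 genes, the log2 genotype difference in control had a median of 0.70 and ran from 0.40 to 1.49, beside a median of 0.02 over all genes tested. In bleomycin it had a median of -0.05 and ran from -0.18 to -0.01, beside a median of 0.00 over all genes to 2 decimals. Without replicate 2 the control difference ran from 0.59 to 1.84 with a median of 0.80. All bleomycin libraries lay above all control libraries in 7 of 7 genes in wild type cells (32.1% of all genes) and in 7 of 7 in knockout cells (27.4% of all genes). All 3 knockout controls lay above all wild type controls in 5 of 7 genes, the exceptions being AKAP9 and TLR4, beside 6.83% of all genes. Replicates 1 and 3 alone did so in 7 of 7, beside 14.2%. These counts restate how the genes were chosen.

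Knockout control replicate 2 was not used when the genes were chosen, and it is a library that stands apart. The wild type controls it is set against did go into the choice, so the comparison is not separate from it. It lay above all wild type controls in 5 of the 7 genes, which 40.3% of all genes did, and 48.1% of the 2368 genes in which replicates 1 and 3 did. On the log2 scale it exceeded the wild type control mean by 1.29 in THBD, 0.49 in CAVIN2, 0.46 in GALNT5, 0.31 in INPP5D and 0.31 in CYFIP2, and by 0.02 in TLR4, and was at -0.09 in AKAP9. Relative to the other knockout controls it was lower in 6 genes, by between 0.30 (CAVIN2) and 1.47 (INPP5D), and higher by 0.59 in THBD. A single library gives no test.

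How the size of the response was counted changed the picture among the 7 genes. The knockout gain in CPM was 0.935 to 0.959 of the wild type gain in INPP5D, CYFIP2 and GALNT5, whose control levels were low in both genotypes. In THBD it was 0.698 of the wild type gain, in AKAP9 0.631, in CAVIN2 0.601 and in TLR4 0.511, where the control level was a larger share of the level reached. With knockout control replicate 2 left out, these values were 0.921 to 0.956 in the first 3 genes, 0.775 in THBD, 0.541 in CAVIN2, 0.522 in AKAP9 and 0.310 in TLR4. In the first 3 genes the fold change was smaller in knockout cells and the added amount nearly equal, and in the other 4 both were smaller.

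The average genotype difference over control and bleomycin is the mean of the genotype differences that went into the choice, so it too is a description, and nothing is read from its calls. It was 0.72 (SE 0.20) in INPP5D, 0.43 (SE 0.10) in THBD, 0.37 (SE 0.09) in GALNT5, 0.33 (SE 0.08) in CAVIN2, 0.32 (SE 0.10) in CYFIP2, 0.26 (SE 0.13) in TLR4 and 0.11 (SE 0.10) in AKAP9 on the log2 scale. The median was 0.33, beside 0.01 over all genes. With Benjamini-Hochberg over 16702 genes, edgeR called 0 of the 7, beside 0.659% of all genes, and DESeq2 called 4, beside 2.23%. An unadjusted p under 0.05 in edgeR was reached by 5 of the 7, beside 1750 of the 16702 genes. Without knockout control replicate 2 edgeR called 7, beside 3.16%.

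Levels per length were compared as the deposited FPKM. In wild type control the order was THBD (3.49 ± 0.220), AKAP9 (2.60 ± 0.0991), CAVIN2 (2.44 ± 0.0838), TLR4 (0.945 ± 0.169), GALNT5 (0.563 ± 0.0829), CYFIP2 (0.419 ± 0.0382) and INPP5D (0.139 ± 0.0341 FPKM, SD, n = 3). Only AKAP9 and CAVIN2 overlapped between neighbours. In wild type bleomycin CYFIP2 led with 25.2 ± 0.981, ahead of THBD (15.9 ± 1.68), GALNT5 (11.6 ± 0.734), INPP5D (7.99 ± 0.660), AKAP9 (6.997 ± 0.345), CAVIN2 (6.77 ± 0.337) and TLR4 (2.09 ± 0.156 FPKM, SD, n = 3). The neighbours INPP5D, AKAP9 and CAVIN2 overlapped there. CYFIP2 thus moved from the sixth place to the first, and TLR4 from the fourth to the last.

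In knockout control THBD again led at 6.63 ± 1.66 FPKM (SD, n = 3), followed by CAVIN2 (3.96 ± 0.500) and AKAP9 (3.42 ± 0.842), which overlapped. TLR4 (1.41 ± 0.406), GALNT5 (0.937 ± 0.143), CYFIP2 (0.670 ± 0.159) and INPP5D (0.391 ± 0.202 FPKM) followed, each overlapping the next. The overlaps came from replicate 2: in the other 2 libraries no neighbours overlapped, with TLR4 at 1.59 to 1.70, GALNT5 at 1.01 to 1.03, CYFIP2 at 0.653 to 0.837 and INPP5D at 0.432 to 0.568 FPKM. In knockout bleomycin the order was CYFIP2 (24.4 ± 1.14), THBD (15.3 ± 0.561), GALNT5 (11.5 ± 0.724), INPP5D (7.73 ± 0.428), CAVIN2 (6.54 ± 0.259), AKAP9 (6.18 ± 0.568) and TLR4 (1.99 ± 0.0905 FPKM, SD, n = 3). Only CAVIN2 and AKAP9 overlapped, and they had changed places from wild type bleomycin, where they overlapped too.

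**Figure D3:**
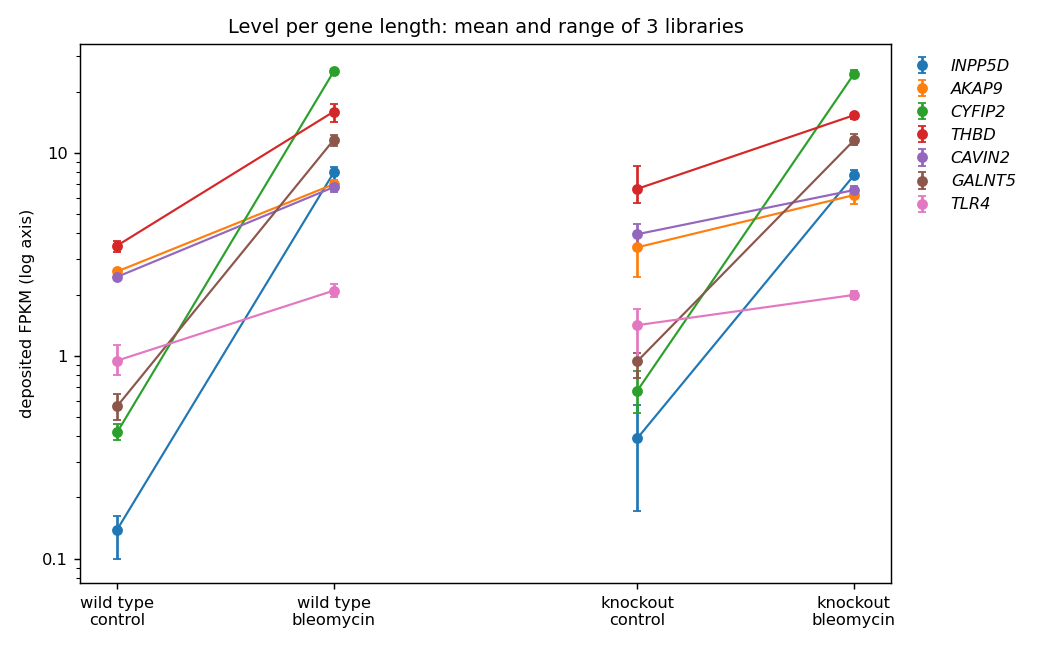
Deposited FPKM (log axis) of the 7 genes in the 4 groups, with points for the mean of 3 libraries and bars from the lowest to the highest library. CYFIP2 passes from 0.419 to 25.2 FPKM in wild type cells, crossing 5 other genes, and the order after bleomycin differs between genotypes only in AKAP9 and CAVIN2.

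The 7 profiles resembled each other and a set of other bleomycin-raised genes over the 12 libraries. All 7 were chosen by the same interaction, so some likeness among them is built into the choice. Pearson's r of log2 CPM, given as a description because the libraries share 2 treatments, ran from 0.837 (THBD with TLR4) to 0.997 (CYFIP2 with GALNT5) over 21 pairs. The protein-coding genes most like CYFIP2 were CDKN1A (r = 0.998), which encodes the cell cycle inhibitor p21, and IL24 (r = 0.998), a cytokine gene. OSBPL3 (r = 0.999) and CDKN1A (r = 0.997) were closest to GALNT5, and CDC42EP3 (r = 0.995) and ANK1 (r = 0.995) to INPP5D. The nearest to AKAP9 were PTPN22 (r = 0.990) and C2orf88 (r = 0.989), to THBD KCNJ12 (r = 0.990) and GFPT1 (r = 0.989), and to CAVIN2 CEP290 (r = 0.972) and INSYN2 (r = 0.971). TLR4 had the loosest neighbours, USP53 (r = 0.959) and RASGRF1 (r = 0.956). The mean profile of the 7 was closest to PTPN22, HHAT, ABCA13, RGMA and SIKE1, with r from 0.991 to 0.994.

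CDKN1A, the neighbour of CYFIP2 and GALNT5, was at 91.2 ± 5.35 CPM in wild type control and 142 ± 10.8 CPM in knockout control, and at 4669 ± 81.2 and 4152 ± 194 CPM after bleomycin (SD, n = 3). PTPN22, nearest to the mean profile, was at 0.459 ± 0.118 and 1.198 ± 0.607 CPM in wild type and knockout control and at 10.6 ± 1.81 and 9.60 ± 0.604 CPM after bleomycin. Both had a higher mean in the knockout before bleomycin and a lower one after it, which for PTPN22 was by less than the wild type SD. CDKN1A passed the interaction threshold in the fit that chose the 7 genes, and PTPN22 lay just outside it. Their likeness thus restates that choice. Among the other genes nearest the mean profile, the knockout mean after bleomycin was higher in HHAT and SIKE1 and lower in ABCA13 and RGMA. A list of 28 p53 target genes, chosen with earlier results of these data known, was read beside the 7 genes. All 28 rose after bleomycin in both genotypes, beside 23.9% of all genes higher in wild type and 22.5% in knockout cells. Their median interaction was -0.31, beside -0.03 over all genes, with 24 of the 28 below 0. By edgeR 0 of the 28 passed, and 14 had an unadjusted p under 0.05, beside 770 of 16702 genes. Without knockout control replicate 2 the median was -0.32, with 26 below 0 and 2 called, beside 0.0523% of all genes. A smaller knockout response was thus not particular to the 7 genes. Relative to the wild type control mean, the median log2 level of the 28 was 0.30, 0.30 and 0.21 in knockout controls 1, 2 and 3, and that of the 7 genes, which were chosen with replicates 1 and 3, was 0.85, 0.31 and 0.77.

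The partners of the 7 genes were read from 7 lists of 199 pathway genes, of which 160 were tested. For the interaction 0 of the 160 passed edgeR's test (4 had an unadjusted p under 0.05), beside 0 of all 16702 genes (770 with an unadjusted p under 0.05). The median interaction of the 160 was -0.02, beside -0.03 over all genes. Bleomycin changed 83 of the 160 in wild type cells (26 higher, 57 lower), a share of 51.9% beside 43.5% of all genes. In knockout cells it changed 87 (30 higher, 57 lower), 54.4% beside 43.2%. The median log2 response was -0.15 in wild type and -0.20 in knockout cells, beside 0.02 and 0.00 over all genes. More of the partners thus fell than rose, while the 7 genes were all higher. Some partners rose more than the gene their list was drawn up around. The highest wild type response was 4.33 in the coagulation list, 3.46 in caveola, 7.35 in O-glycosylation and 2.18 in Toll-like. THBD, CAVIN2, GALNT5 and TLR4 had 2.20, 1.48, 4.37 and 1.15. Of all genes, 23.9% were called higher in wild type and 22.5% in knockout cells. By list, the wild type share changed was 53.6% (phosphoinositide), 45.2% (kinase A anchoring), 41.7% (WAVE), 76.5% (coagulation), 66.7% (caveola), 55% (O-glycosylation) and 40% (Toll-like). The knockout share was 50%, 48.4%, 54.2%, 70.6%, 53.3%, 50% and 60% in the same order. Without knockout control replicate 2, bleomycin changed 106 of 162 in wild type (33 higher, 73 lower, 65.4% beside 56.6% of all genes) and 96 in knockout cells (33 higher, 63 lower, 59.3% beside 48.4%), with medians of -0.16 and -0.10.

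**Figure D4:**
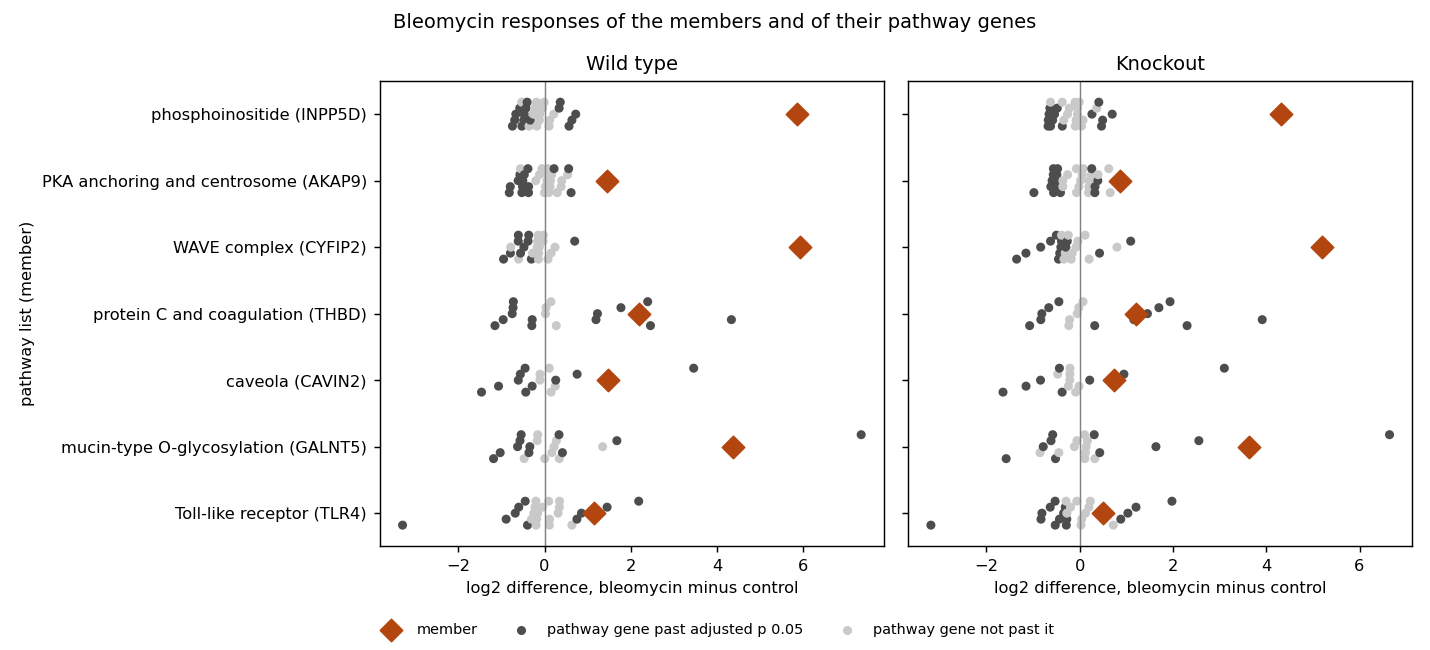
Log2 difference of bleomycin minus control in wild type (left) and knockout (right) cells for the genes of each pathway list (dots, dark where the adjusted p was under 0.05) and for the gene each list was drawn up around (diamonds). The INPP5D, CYFIP2 and AKAP9 diamonds, at 5.85, 5.91 and 1.44 in wild type cells, lie beyond every dot of their lists. In the lists of THBD, CAVIN2, GALNT5 and TLR4 the highest dot lies beyond the diamond, at 4.33, 3.46, 7.35 and 2.18 in wild type cells.

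Of 28 tested genes of phosphoinositide signalling, 5 rose and 10 fell in wild type cells, and 5 rose and 9 fell in knockout cells (medians -0.21 and -0.16). INPPL1, which encodes SHIP2, the relative of the INPP5D product, did not pass in wild type (-0.04, SE 0.10, adjusted p = 0.763, edgeR) or knockout cells (0.04, SE 0.10, adjusted p = 0.771). It stood at 220 ± 26.0 CPM in wild type control and 213 ± 13.6 CPM in wild type bleomycin (SD, n = 3). INPP5D was thus many-fold higher after bleomycin, while INPPL1 did not pass the test in either genotype.

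Among 31 tested genes of kinase A anchoring and the centrosome, 3 rose and 11 fell in wild type cells, and 4 rose and 11 fell in knockout cells (medians 0.00 and -0.07, the latter -0.02 without knockout control replicate 2). CDK5RAP2 and PCNT, large scaffolds of the centrosome matrix, fell, while their relative AKAP9 was higher. CDK5RAP2 fell by 0.61 (SE 0.10, adjusted p = 0.000221, edgeR) in wild type and 0.56 (SE 0.10, adjusted p = 0.000503) in knockout cells. PCNT fell by 0.37 (SE 0.12, adjusted p = 0.0221) and 0.52 (SE 0.12, adjusted p = 0.00319). The knockout value includes control replicate 2, at 200 CPM of PCNT where replicates 1 and 3 had 155 and 162. In wild type cells the call of PCNT was lost without control replicate 2 or 3 or bleomycin replicate 3 (adjusted p from 0.0676 to 0.0889).

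Of 24 tested genes around the WAVE complex, 1 rose and 9 fell in wild type cells, and 2 rose and 11 fell in knockout cells (medians -0.22 and -0.30). The counts were 2 and 12 in wild type and 3 and 12 in knockout cells without knockout control replicate 2. CYFIP1, the paralog that can take the place of CYFIP2 in the complex, fell from 191 ± 14.5 to 130 ± 3.60 CPM in wild type cells (SD, n = 3; -0.56, SE 0.08, adjusted p = 8e-05, edgeR). In knockout cells CYFIP1 fell from 196 ± 6.94 to 143 ± 3.53 CPM (-0.45, SE 0.08, adjusted p = 0.000504). NCKAP1, the subunit that CYFIP proteins bind, fell by 0.31 (SE 0.11, adjusted p = 0.0320) and 0.29 (SE 0.11, adjusted p = 0.0383). The call of NCKAP1 was lost in 5 of 12 fits with 1 library left out in wild type (adjusted p from 0.0700 to 0.1005) and in 10 of 12 in knockout cells (0.0510 to 0.148). CYFIP2 was thus higher after bleomycin in both genotypes while its paralog fell.

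Of 17 tested genes of the protein C and coagulation list, 6 rose and 7 fell in wild type cells, and 7 rose and 5 fell in knockout cells (medians 0.03 and -0.02, the latter 0.03 without knockout control replicate 2). PROCR, the endothelial protein C receptor that presents protein C to thrombin bound on thrombomodulin, rose with THBD. It went from 25.8 ± 2.83 to 60.3 ± 2.87 CPM in wild type cells (SD, n = 3; 1.23, SE 0.11, adjusted p = 1.19e-06, edgeR) and from 27.7 ± 2.51 to 61.9 ± 4.78 CPM in knockout cells (1.16, SE 0.11, adjusted p = 2.61e-06). F3, which encodes tissue factor and starts clotting, fell by 0.75 (SE 0.09, adjusted p = 2.64e-05) and 0.66 (SE 0.09, adjusted p = 9.33e-05). PROC itself, the zymogen that the liver makes, was too low to be tested.

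Among 15 tested caveola genes, 3 rose and 7 fell in wild type cells, and 3 rose and 5 fell in knockout cells (medians -0.11 and -0.21). CAV1, the structural protein of caveolae, rose by 0.76 (SE 0.19, adjusted p = 0.00507, edgeR) in wild type and 0.95 (SE 0.19, adjusted p = 0.00121) in knockout cells. CAVIN1 and CAVIN3 went the opposite way to CAVIN2. CAVIN1, the cavin needed for caveolae to form, fell from 1188 ± 66.2 to 567 ± 41.5 CPM in wild type cells (SD, n = 3; -1.07, SE 0.14, adjusted p = 3.59e-05), and by 1.15 (SE 0.14, adjusted p = 2.38e-05) in knockout cells. CAVIN3 fell by 0.56 (SE 0.15, adjusted p = 0.00691) and 0.84 (SE 0.15, adjusted p = 0.000499). These knockout values include control replicate 2, which lay on the side that makes the knockout responses larger. It had 337 CPM of CAV1, where replicates 1 and 3 had 644 and 599. For CAVIN1 it had 1807 CPM (1226 and 1254 in replicates 1 and 3), and for CAVIN3 75.4 CPM (51.6 and 50.8).

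Of 20 tested genes of mucin-type O-glycosylation, 4 rose and 7 fell in wild type cells, and 5 rose and 5 fell in knockout cells (medians -0.08 and 0.11, the latter 0.07 without knockout control replicate 2). GALNT2, a broadly expressed transferase of the same family as GALNT5, fell by 0.34 in wild type cells (SE 0.09, adjusted p = 0.00844, edgeR) and did not pass in knockout cells (-0.11, SE 0.09, adjusted p = 0.351). C1GALT1, which extends the first sugar to the core 1 glycan, did not pass in wild type (0.17, SE 0.09, adjusted p = 0.139) or knockout cells (0.12, SE 0.09, adjusted p = 0.277). Without knockout control replicate 2 it passed in wild type cells (adjusted p = 0.0424). GALNT3 had 0 to 3 counts per library and was not tested.

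Among 25 tested genes of the Toll-like receptor pathway, 4 rose and 6 fell in wild type cells, and 4 rose and 11 fell in knockout cells (medians -0.16 and -0.27). With knockout control replicate 2 left out, 26 were tested, of which 6 rose and 12 fell in wild type and 5 rose and 11 fell in knockout cells (medians -0.11 and -0.14). CD14, which hands lipopolysaccharide to TLR4, fell from 21.3 ± 2.17 to 2.16 ± 0.515 CPM in wild type cells (SD, n = 3; -3.29, SE 0.25, adjusted p = 2.37e-07, edgeR). In knockout cells CD14 fell from 34.1 ± 5.92 to 3.71 ± 1.42 CPM (-3.19, SE 0.24, adjusted p = 2.47e-07). LY96, which encodes the TLR4 co-receptor MD-2, had 1 to 18 counts per library and was not tested. MYD88, the adaptor, fell by 0.34 in knockout cells (SE 0.09, adjusted p = 0.00902) and did not pass in wild type cells (-0.20, SE 0.09, adjusted p = 0.0969). TLR3, the receptor for double-stranded RNA, rose by 0.75 (SE 0.23, adjusted p = 0.0189) and 0.88 (SE 0.24, adjusted p = 0.00874). The knockout value includes control replicate 2, at 5.35 CPM of TLR3 where replicates 1 and 3 had 12.3 and 10.3. Without wild type control replicate 1 or 2 or wild type bleomycin replicate 1 the call of TLR3 in wild type cells was lost (adjusted p from 0.0562 to 0.0659), and without knockout control replicate 2 MYD88 passed there (adjusted p = 0.0349). The receptor gene TLR4 was thus higher after bleomycin while the gene of its accessory protein CD14 fell.

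Between genotypes few of the partners were called, though at larger shares than of all genes in control and for the average over both treatments. The lists were drawn up with earlier results of these data known. In control, 2 of the 160 passed (1.25%, beside 0.168% of all genes). GALNT10, another transferase of the GALNT5 family, was higher in the knockout (0.45, SE 0.08, adjusted p = 0.0467, edgeR), from 74.9 CPM in wild type to 102 CPM in knockout cells. IRAK3, an inhibitor of Toll-like receptor signalling, was lower (-0.65, SE 0.11, adjusted p = 0.0467), from 26.8 to 17.1 CPM. Leaving out any library but knockout control replicate 2 left 0 of the 160 called in control, and leaving out that one left 7 of 162 called in control (4.32%, beside 1.02% of all genes) and 6 in bleomycin (beside 1.71% of all genes). In bleomycin 0 of the 160 passed edgeR's test, beside 0.0479% of all genes, and DESeq2 called 3, beside 0.527%. An unadjusted p under 0.05 in edgeR was reached there by 15 of the 160, beside 1103 of the 16702 genes tested. For the average over both treatments, F3 (0.37, SE 0.07, adjusted p = 0.0245), ROR1 (0.37, SE 0.07, adjusted p = 0.0334) and GALNT10 (0.31, SE 0.06, adjusted p = 0.0245) were higher in the knockout. IRAK1 (-0.40, SE 0.07, adjusted p = 0.0250) and IRAK3 (-0.57, SE 0.08, adjusted p = 0.00834) were lower, which makes 5 of 160 (3.12%) beside 0.659% of all genes, or 14 of 162 (8.64%) without knockout control replicate 2, beside 3.16%. With 1 library left out in turn, IRAK3 was called in 12 of 12 fits, F3, IRAK1 and ROR1 in 2 each and GALNT10 in 1.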

How the data were processed

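Raw counts per gene and FPKM values of the 12 libraries were deposited by the authors as separate tables. The submitters' processing notes name HISAT2 2.0.5 and featureCounts 1.5.0-p3. Build and use of strand: not given in the sources used here. The tables' coordinates are those of GENCODE release 29.

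Counts were fitted with edgeR 4.0.16 (R 4.3.3, TMM, filterByExpr, quasi-likelihood, robust) over all 12 libraries and 4 group means. P-values were adjusted by Benjamini-Hochberg over all genes tested, at 0.05. SE is the absolute log2 difference divided by the square root of F. Log2 CPM used a prior count of 2. The average genotype difference was planned as a test of the 7 genes and is given as a description, because the differences it averages went into their choice. Alternatives were DESeq2 1.42.0, its size factors, no filter, the replicate number as a block, limma 3.58.1 on log2(FPKM + 1), which understates changes of low genes, and leaving out each library.

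The genes, the pathway lists, the p53 list and the markers were chosen with earlier results of these data known. The genes named were the 7, the key partners of each list (and any past the interaction threshold), the 2 protein-coding genes most like each of the 7 by Pearson's r, and the 5 most like their mean. A gene that this rule takes is not reported here. Others, such as CDKN1A, COL1A1, GALNT10, IRAK1, IRAK3, F3 and ROR1 in the genotype comparisons, were named after their values were seen. Replicate numbers were not used to pair the samples in the main fit. Deviations of same-numbered libraries from their group means correlated from -0.128 to 0.109, and 1 of 18 pairs exceeded 0.1. With 3 libraries per group and knockout control replicate 2 standing apart, this cannot exclude shared handling of same-numbered libraries. Floors cover counting error only.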

Additional observations from a re-analysis of the deposited data

How the results depend on the processing

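The response of all 7 genes was smaller in knockout than in wild type cells under every alternative run. Leaving out each library in turn kept this count at 7 of 7, which restates how the genes were chosen. Over all genes, the interaction was called in 0 genes with 12 libraries, in 4 by DESeq2, in 13 without the filter on low counts, and in 0 to 9 with a library left out, 9 being without knockout control replicate 2. The average genotype difference, a description for genes chosen this way, was called in 0 of the 7 genes, in 4 by DESeq2, in 2 without the filter, and in 0 to 7 with a library left out, 7 again being without knockout control replicate 2. Over all genes it was called in 110, in 373 by DESeq2, in 326 without the filter, in 57 with the replicate number as a block, and in 25 to 544 with a library left out. Of the pathway genes, the genotype difference in control was called in 2, in 4 without the filter, in 0 with the replicate block, in 0 by limma on log2(FPKM + 1), and in 0 to 7 with a library left out. In bleomycin it was called in 0, in 3 by DESeq2, in 2 without the filter, and in 0 to 6 with a library left out. Bleomycin changed 70 to 106 pathway genes in wild type and 70 to 96 in knockout cells with a library left out, and 82 and 81 with the replicate block. The pathway interaction was called in 0 genes throughout the libraries left out. The uncalled difference of INPPL1 changed sign, to 0.00748 in wild type cells without wild type control replicate 3 and to -0.0223 in knockout cells without knockout bleomycin replicate 1, within ranges over the libraries left out of -0.144 to 0.00748 and -0.0223 to 0.0766. The cause of these shifts was not tested. INPP5D in control rests on 17 to 82 counts per library, which limits its control level and its fold.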
